A study of Homo sapiens with 6 samples.

Results

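GABA-A receptor subunit genes were followed from undifferentiated human embryonic stem cells (hESCs) to neuromesodermal progenitor-like (NMP-L) cells. The 7 genes described are GABRG1, GABRA2, GABRA4 and GABRB1 of the gene cluster on chromosome 4, GABRB2 of the cluster on chromosome 5, and GABRA5 and GABRG3 of the cluster on chromosome 15. They are 7 of the 19 GABA-A subunit genes and of the 27672 genes in the expression table. They were chosen by symbol to ask whether GABRB2 is higher alone or together with its cluster. The higher level of GABRB2 in NMP-L cells was already known when the genes were chosen, so their values are a description and carry no p-value.

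RNA-seq of polyadenylated RNA was performed on 3 biological replicates of each condition, all from the unmodified H9 hESC line, a single established line. The hESC libraries (day 0) were untreated, and fibronectin as the substrate with Noggin (10 ng/ml) and bFGF (30 ng/ml) in DEF medium is given in the labels, but TESR medium on Geltrex in the study's methods. The NMP-L libraries (day 3) came from cells kept for 3 days in neurobasal medium with N2 and B27, CHIR99021 (3 µM), an activator of Wnt signalling, and bFGF (20 ng/ml). The study's methods also name Noggin, a BMP inhibitor, and a TGFβ inhibitor over a span of days that includes day 3. The labels give Noggin for the hESC libraries only. Both conditions are mixed bulk cultures, in which fewer cells of a type and less RNA per cell cannot be told apart. Library totals lay between 19454543 and 23036426 expected counts (reads assigned to genes by RSEM, which splits shared reads by their likely origin). The smallest amount taken as detectable, 3 counts, corresponded to between 0.130 and 0.154 in counts scaled to 1000000 per library (CPM). No fractional count, the mark of a read shared between genes, occurred in any of the 19 subunit genes.

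GABA-A receptors are chloride channels opened by the transmitter GABA, and each is a ring of subunits usually drawn from the alpha, beta and gamma classes. The beta subunits help to form the GABA binding site and are needed for assembly at the cell surface, the alpha subunits determine much of the pharmacology, and gamma subunits are needed for benzodiazepine sensitivity and clustering at synapses. In mature neurons the receptors carry fast inhibition. In immature cells, which hold more chloride, they tend to depolarise, and GABA signalling also acts on the proliferation of stem and progenitor cells. Most subunit genes lie in clusters that arose by duplication, and those on chromosomes 4, 5 and 15 each have alpha, beta and gamma members.

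On GRCh37, with GENCODE release 44 gene models, the cluster on chromosome 4 spans chr4:46037786-47428464 and holds GABRG1, GABRA2, GABRA4 and GABRB1 in this order. GABRA4 (minus strand) and GABRB1 (plus strand) start head to head, 0.141 kb apart. GABRB2 lies on the minus strand of chromosome 5 at chr5:160715436-160976050, at one end of its cluster. Its gene model overlaps that of GABRA6 by 1.98 kb. The windows before their RefSeq starts, chr5:161546726-161546975 and chr5:161685471-161685720 on GRCh38.p14, lie apart. On chromosome 15, GABRA5 lies at chr15:27112058-27194355 and GABRG3 at chr15:27216328-27787130, both on the plus strand, and the model of GABRA5 overlaps a gene model on the minus strand. Whether strand was used in counting is not given in the sources used here, so that reads from the overlaps cannot be told apart.

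The sequence before the transcription start is shown for 3 genes, because GABRB2 was much higher in NMP-L cells while GABRB1, the other beta gene among the 7, was near 0 in every library and GABRG1 (log2 fold change -0.72) was not past the threshold. Each line gives the 250 bases before a RefSeq start on GRCh38.p14, 5′ to 3′ on the gene's strand. The windows are chr5:161546726-161546975 (minus strand), chr4:47031317-47031566 (plus strand) and chr4:46124055-46124304 (minus strand). Capitals mark CTTTGA (a core of TCF/LEF sites, the factors through which Wnt signalling acts), TTTATG (a core of CDX sites) or TCACACCT (a T-box motif), searched on both strands.
GABRB2: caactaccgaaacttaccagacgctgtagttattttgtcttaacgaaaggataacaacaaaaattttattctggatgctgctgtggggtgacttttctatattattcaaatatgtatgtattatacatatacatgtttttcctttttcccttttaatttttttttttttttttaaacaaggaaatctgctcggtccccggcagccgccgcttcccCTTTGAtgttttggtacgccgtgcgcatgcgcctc
GABRB1: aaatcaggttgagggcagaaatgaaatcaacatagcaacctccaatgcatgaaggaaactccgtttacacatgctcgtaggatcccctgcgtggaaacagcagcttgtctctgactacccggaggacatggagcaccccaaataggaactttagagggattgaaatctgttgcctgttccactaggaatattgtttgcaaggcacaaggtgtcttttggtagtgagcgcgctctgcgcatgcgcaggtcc
GABRG1: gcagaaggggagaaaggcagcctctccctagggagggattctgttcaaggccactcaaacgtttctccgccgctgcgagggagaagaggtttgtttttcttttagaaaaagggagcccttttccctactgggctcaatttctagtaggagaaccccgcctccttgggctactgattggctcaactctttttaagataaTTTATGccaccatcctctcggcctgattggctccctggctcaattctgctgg
The GABRB2 window held CTTTGA, which occurs in 11.2% of all 35116 windows of this length in the table. It was the only one of the 8 windows of the 7 genes to hold it. Outside the 7 genes, the window of GABRP, a subunit gene that was lower in NMP-L cells, held it as well. Whether the motif has a part in the change of GABRB2 was not tested. The GABRB1 window held none of the 3 motifs. No motif overlapped another in the windows shown. TTTATG was found only in the GABRG1 window among the 8 (9.64% of all windows) and TCACACCT in none of them (0.786% of all windows). The GABRB2 window held 11 CpG dinucleotides, the median of all windows, at a GC content of 38% against a median of 58%. GABRA5 has no entry in the sequence table, and 6 of the 7 genes were matched.

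Of the cluster on chromosome 5, GABRB2 encodes the beta2 subunit, a part of the most abundant receptor of the adult brain. GABRB2 had 4, 6 and 4 counts in the hESC libraries and 302, 351 and 371 counts in the NMP-L libraries. All NMP-L libraries lay far above all hESC libraries. Its level was 0.244 ± 0.0563 in hESCs and 15.3 ± 1.6 in NMP-L cells (mean CPM ± SD of 3 libraries), a fitted ratio of 61.0 (log2 fold change 5.93, standard error 0.21). Only 28 of the 15517 genes that passed the expression filter, GABRB2 included, had a log2 fold change of this size or more. With each library left out in turn the log2 fold change ranged from 5.82 to 6.13.

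GABRA6, which encodes the cerebellar alpha6 subunit and whose gene model overlaps that of GABRB2, had 0 counts in 5 libraries and 1 in an NMP-L library. It was not detectable at this depth, although it is the subunit gene next to GABRB2.

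**Figure D1:**
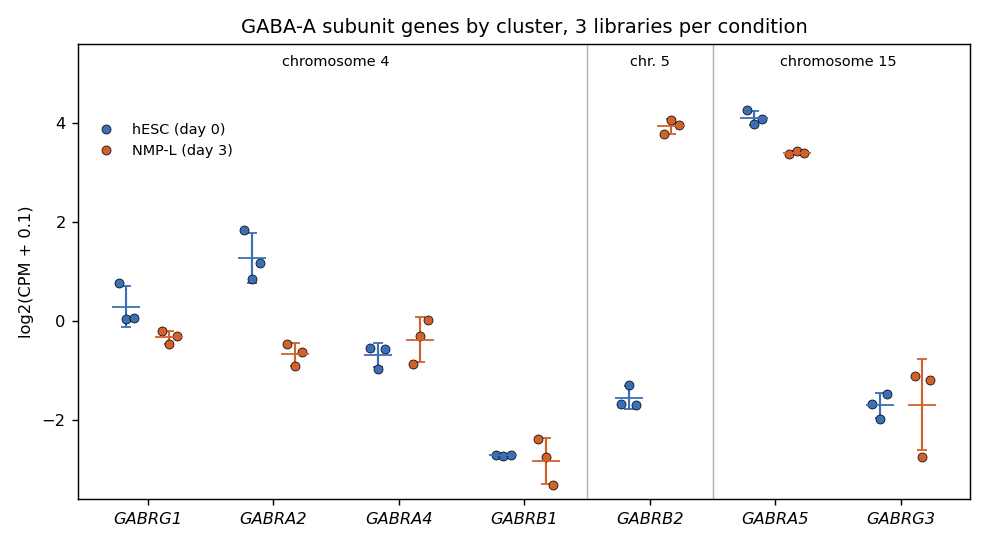
The plot of levels by cluster shows log2(CPM + 0.1) of the 7 genes, with a point for each of the 3 hESC (blue) and 3 NMP-L (orange) libraries, a horizontal line at the mean and bars of 1 SD. GABRB2 is the gene whose conditions lie farthest apart, at a mean of 0.244 CPM against 15.3 CPM, while GABRA5 and GABRA2 lie lower in NMP-L cells.

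Of the cluster on chromosome 4, no gene showed a change like that of GABRB2. GABRA2 encodes the alpha2 subunit, which is prominent in the embryonic and newborn brain. It had 65, 33 and 41 counts in hESCs and 14, 9 and 13 in NMP-L cells, without overlap. The level went from 2.44 ± 0.923 CPM to 0.533 ± 0.10 CPM (SD, n = 3 each), 4.5-fold lower after differentiation (log2 fold change -2.17, standard error 0.34). The first hESC library was the highest, and without it the log2 fold change was -1.86.

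GABRG1, the gamma1 gene, had 30, 18 and 18 counts in hESCs and 17, 13 and 17 in NMP-L cells. The libraries did not overlap once scaled to depth, but they lay close together, at 1.16 ± 0.386 against 0.697 ± 0.0725 CPM (log2 fold change -0.72, standard error 0.31). GABRA4, the alpha4 gene of extrasynaptic receptors, had 11, 8 and 11 counts in hESCs and 10, 15 and 22 in NMP-L cells. Its conditions overlapped (log2 fold change 0.41, standard error 0.37). GABRB1, which encodes beta1 and whose gene model ends 0.141 kb from that of GABRA4, had 1 count in each hESC library. It had 2, 1 and 0 counts in the NMP-L libraries. All 6 values are under the limit of 3 counts, so that no fold is given.

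Of the cluster on chromosome 15, GABRA5 encodes alpha5, the subunit of tonic inhibition in the hippocampus. It was the most abundant of the 7 genes in hESCs. It had 357, 306 and 321 counts in hESCs and 229, 225 and 250 in NMP-L cells, and every NMP-L library was below every hESC library. The level went from 17.2 ± 1.70 to 10.5 ± 0.226 CPM (SD, n = 3 each), 1.64-fold lower in NMP-L cells (log2 fold change -0.71, standard error 0.12). GABRG3, the gamma3 gene, had 4, 3 and 5 counts in hESCs and 8, 1 and 8 in NMP-L cells, with overlap. The ratio of its summed counts per depth was 1.27, with a 95% exact interval from 0.573 to 2.92 that covers counting error only.

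Across the 7 genes, 5 passed the expression filter (GABRB2, GABRA2, GABRA4, GABRG1 and GABRA5) and 2 did not (GABRB1 and GABRG3). GABRB2, with 4, 6 and 4 counts in hESCs, passed it through the NMP-L libraries, where it was high. Among the 5, GABRB2 was past an adjusted p of 0.05 as higher, and GABRA2 and GABRA5 as lower, in a comparison in which 55.8% of all tested genes were past this threshold (29.1% as higher and 26.7% as lower). By library values, 1 of the 7 was higher and 3 were lower without overlap, against 62.7% of tested genes without overlap in either direction, 37.1% higher and 25.7% lower. These counts use the contrast for which the genes were chosen and are given as an account of them only. All 5 kept their sign under every scaling tried. The scalings relative to GAPDH and to HPRT1 counts moved the median of all genes by 0.56 and -0.30 on the log2 scale. With GAPDH as reference GABRA5 (-0.16) was no longer past the threshold, and with HPRT1 as reference GABRG1 (-0.99) was past it as lower.

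Levels of different genes were compared in TPM, which are scaled to transcript length. In hESCs the order of the 7 genes was GABRA5 (12.7 ± 1.5 TPM), GABRA2 (0.580 ± 0.223), GABRG1 (0.347 ± 0.124), GABRG3 (0.257 ± 0.106), GABRA4 (0.0900 ± 0.0173), GABRB2 (0.0667 ± 0.0115) and GABRB1 (0.05 in every library). GABRA2 overlapped with GABRG1, GABRG1 with GABRG3, and GABRA4 with GABRB2. In NMP-L cells GABRA5 (8.32 ± 0.351 TPM) was followed by GABRB2 (4.51 ± 0.510), and GABRB2 was above the next gene, GABRG3 (0.283 ± 0.185), in every library. GABRG1 (0.223 ± 0.0289), GABRA2 (0.133 ± 0.0306), GABRA4 (0.127 ± 0.0451) and GABRB1 (0.0467 ± 0.0451) came after it. GABRG3 overlapped with GABRG1, GABRA2 with GABRA4, and GABRA4 with GABRB1.

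Within the alpha class GABRA5 held the largest share of the summed TPM, 69.3% ± 1.79 in hESCs and 71.5% ± 2.55 in NMP-L cells (SD, n = 3 each). The summed TPM of all 19 subunit genes lay between 100.11 and 127.85 in hESCs and between 109.37 and 117.98 in NMP-L cells, so that the range of the NMP-L libraries fell inside that of the hESC libraries. The 7 genes together made up between 11.7% and 12.6% of this sum in all 6 libraries, but in changed proportions. The mean share of GABRA5 in the sum was 11.2% in hESCs and 7.37% in NMP-L cells, and that of GABRB2 was 0.0598% and 3.99%.

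Of the remaining 12 subunit genes 8 passed the filter, 5 of them were past the threshold, and the 4 described here fell. The 5 are 62.5% of the 8, beside 55.8% of all tested genes past the threshold. GABRP (229, 210 and 192 counts in hESCs, 97, 88 and 108 in NMP-L cells), the pi subunit gene of epithelia, which lies on chromosome 5 outside the cluster, fell by 1.34 on the log2 scale (standard error 0.13, adjusted p = 6.0e-06, edgeR's quasi-likelihood test). GABRD, the delta gene, fell by 1.26 (standard error 0.28, adjusted p = 0.0024, edgeR) and GABRE, the epsilon gene, by 1.18 (standard error 0.35, adjusted p = 0.013, edgeR). GABRA3, the alpha3 gene on the X chromosome, fell by 0.86 (standard error 0.15, adjusted p = 5.4e-04, edgeR). The median log2 fold change of the 8 was -0.56 beside 0.03 over all tested genes. GABRQ (log2 fold change -0.26) and GABRR1 (-0.08) were not past the threshold.

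Of the genes too low to test, GABRR2 had at most 2 counts in any library and GABRR3 had 0 counts in all 6. With GAPDH as reference GABRA3, GABRD and GABRE were no longer past the threshold, and with HPRT1 as reference GABRQ was past it as lower (-0.56). Without hESC replicate 3, the library with most GABRE counts, the fall of GABRE (-0.89) was not past the threshold either (adjusted p = 0.084, edgeR).

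**Figure D2:**
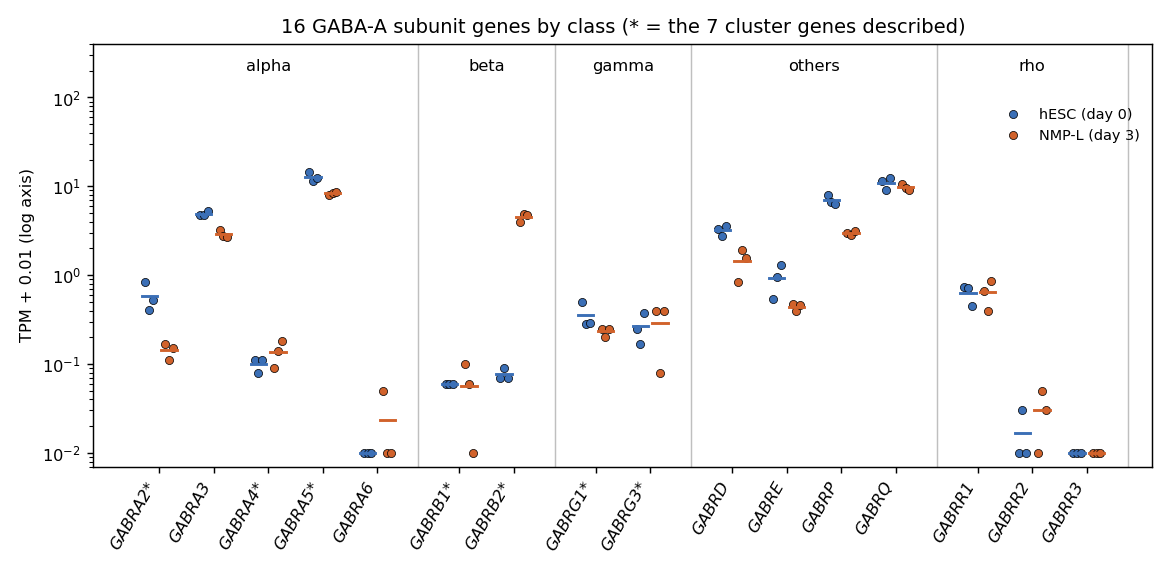
The plot of 16 subunit genes by class gives TPM + 0.01 on a log axis, with a point for each hESC (blue) and NMP-L (orange) library and a line at the mean. GABRB2 lies at 0.0667 TPM on average in hESCs and 4.51 TPM in NMP-L cells.

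The genes beside the clusters were examined to see whether the surroundings of GABRB2 were also higher. Within 1 Mb of the 3 clusters GENCODE lists 22 further protein-coding genes, of which 20 are in the table and 14 were tested. Of these, 1 rose and 9 fell in NMP-L cells, and the median log2 fold change was -0.45. The share past the threshold was 71.4% beside 55.8% of all tested genes. The gene that rose, named after its values were seen, was COMMD8 (log2 fold change 0.75, standard error 0.16, adjusted p = 0.0018, edgeR), 24.3 kb beyond GABRB1. Scaled to GAPDH, 4 of the 14 rose and 4 fell. Scaled to HPRT1, 0 rose and 11 fell.

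Around the cluster on chromosome 5, 0 of the 4 tested genes rose and 3 fell. The share past the threshold was thus 75%, beside 55.8% of all tested genes. All 4 lie before GABRB2, and no further protein-coding gene is annotated within 1 Mb after the cluster. The nearest protein-coding gene in the table, ATP10B, lies 436 kb from GABRB2 and had at most 3 counts in every library. PTTG1 (securin, an inhibitor of sister chromatid separation), 860 kb away, fell by 0.52 (standard error 0.08, adjusted p = 1.6e-04, edgeR), although the sign was positive relative to GAPDH counts (0.034). The splicing factor gene SLU7 was at 47.9 and 48.1 CPM on average (log2 fold change 0.01, adjusted p = 0.95, edgeR). CCNJL, a cyclin J-like gene, fell by 1.35 (standard error 0.11) and C1QTNF2, which encodes a secreted C1q/TNF-related protein, by 1.05 (standard error 0.31, adjusted p = 0.013, edgeR). The call of C1QTNF2 was lost with DESeq2 (adjusted p = 0.057), with GAPDH as reference (adjusted p = 0.19) and without hESC replicate 1 (adjusted p = 0.053, edgeR).

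Around the other clusters, the falls included ATP10A (a phospholipid flippase, log2 fold change -2.10, standard error 0.32) and OCA2 (the melanosomal protein P, -1.43, standard error 0.35) at the cluster on chromosome 15. CNGA1, a cyclic nucleotide-gated channel gene 510 kb beyond the cluster on chromosome 4, fell by 1.91 (standard error 0.39). HERC2, a ubiquitin ligase gene with fractional counts, was only just past the threshold (-0.20, adjusted p = 0.049, edgeR), with a positive sign relative to GAPDH counts (0.35). At a distance of 250 kb in place of 1 Mb only 3 genes were tested, of which 1 rose and 1 fell. Of all tested genes 29.1% rose and 26.7% fell.

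**Figure D3:**
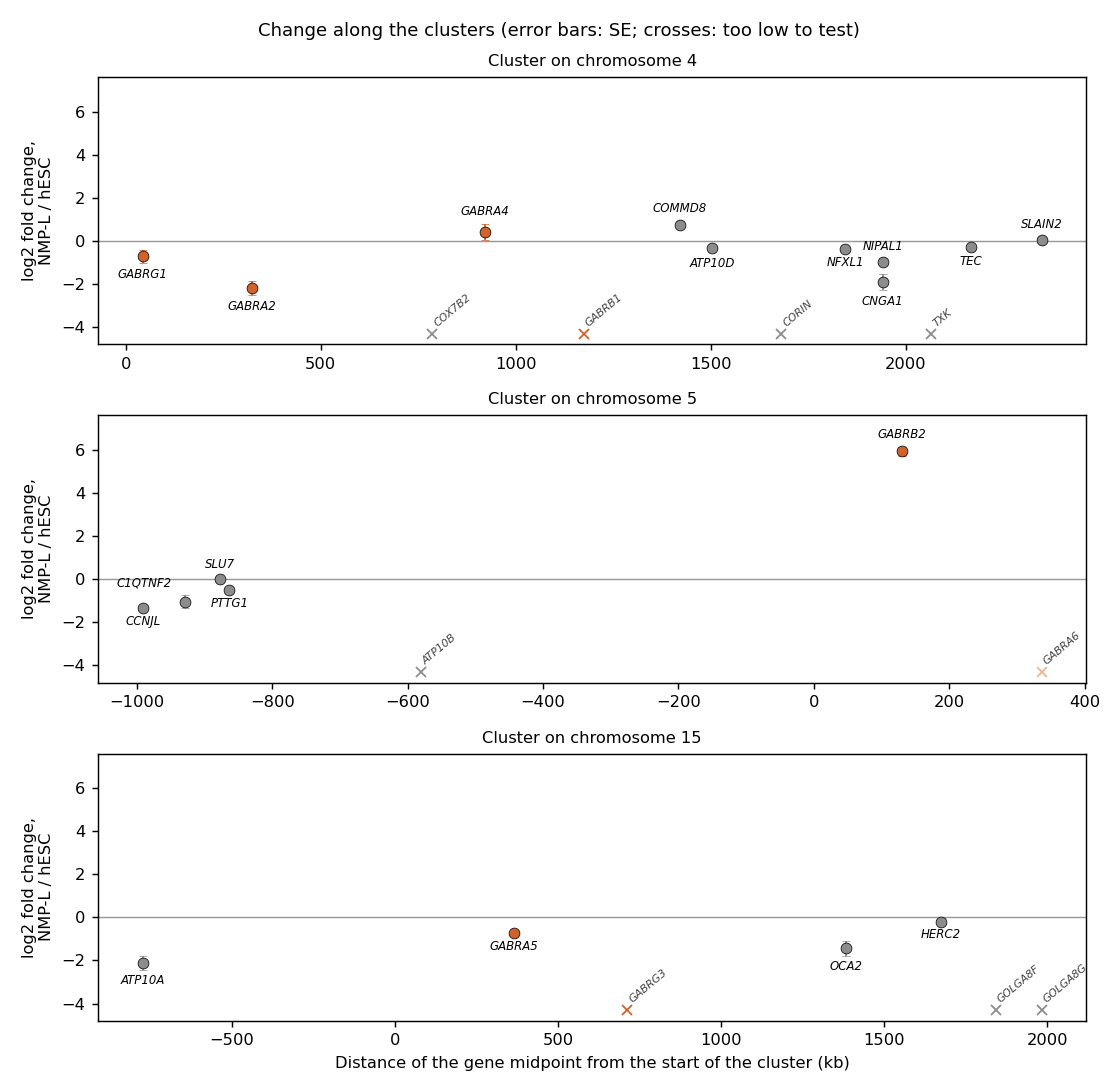
The plot of changes along the clusters gives the log2 fold change (NMP-L over hESC, bars of 1 standard error) of the genes shown against the distance of the midpoint from the start of the cluster in kb, with the 7 genes in orange, GABRA6 in light orange and further genes in grey. Crosses near the lower edge mark genes too low to test and have no value. GABRB2 stands at 5.93, while the 4 tested genes before GABRB2 lie between -1.35 and 0.01.

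Among the other genes of GABA signalling, 32 in all, 27 were tested, 12 rose and 7 fell in NMP-L cells, a share of 70.4% past the threshold beside 55.8% of all tested genes. Their median log2 fold change was 0.20. Scaling to GAPDH gave 19 that rose and 5 that fell, and scaling to HPRT1 gave 4 and 10.

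Genes of GABA synthesis moved apart. GAD1, the gene of the glutamate decarboxylase GAD67, had 3, 11 and 2 counts in hESCs and 512, 432 and 549 in NMP-L cells, far above. It rose by 6.28 on the log2 scale (standard error 0.28, adjusted p = 1.0e-08, edgeR), a change of the size of that of GABRB2. Without hESC replicate 2, which had the most GAD1 counts in hESCs, the value was 7.33. GAD2, the gene of GAD65, the second decarboxylase, had 20, 15 and 12 counts in hESCs and 3, 4 and 2 in NMP-L cells. It fell by 2.56 (standard error 0.45, adjusted p = 4.9e-04, edgeR). Of the 5 genes of synthesis and breakdown 2 rose and 2 fell, where 29.1% of all tested genes rose and 26.7% fell.

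Of the 5 genes of GABA transport 3 were tested and rose, where 29.1% of all tested genes rose. The other two were too low to test, and SLC6A12, named after its values were seen, had 8, 7 and 5 counts in hESCs and 9, 6 and 4 in NMP-L cells, with overlap. Of chloride transport, 1 of 2 genes was tested and rose: SLC12A2 imports chloride, and its log2 fold change was 0.71 (standard error 0.18, adjusted p = 0.0047, edgeR). SLC12A5, the chloride exporter of mature neurons, had between 6 and 17 counts in all 6 libraries and was too low to test.

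The 14 genes of anchoring, assembly and trafficking were all tested, and 5 rose, 3 fell and 6 were not past the threshold. The share past it was 57.1%, near the 55.8% of all tested genes. GPHN, which encodes gephyrin, the scaffold of inhibitory synapses, rose by 1.39 (standard error 0.11, adjusted p = 7.9e-07, edgeR), a gene named after its values were seen. SHISA7, an auxiliary subunit of GABA-A receptors, had 75, 100 and 119 counts in hESCs and 8, 11 and 17 in NMP-L cells. It fell by 3.25 (standard error 0.28, adjusted p = 2.0e-06, edgeR). By the mean level over both conditions, the 3 most abundant genes outside the largest changes were UBQLN1, GABARAPL1 and CLPTM1. In hESCs alone NLGN2, which encodes an adhesion protein of inhibitory synapses and was named after its values were seen, was above the latter pair at 115 CPM, against 43.2 CPM in NMP-L cells. It fell by 1.42 on the log2 scale (standard error 0.11, adjusted p = 9.7e-07, edgeR). UBQLN1, which stabilises receptors, was at 225 and 254 CPM on average in hESCs and NMP-L cells (log2 fold change 0.17, adjusted p = 0.12, edgeR). GABARAPL1 was at 104 and 91.0 CPM (-0.19, adjusted p = 0.064, edgeR) and CLPTM1, which restrains receptor assembly, at 86.5 and 104 CPM (0.27, adjusted p = 0.024, edgeR). With HPRT1 as reference the sign of CLPTM1 turned (-0.033). Its call was also lost with upper-quartile scaling (adjusted p = 0.055, edgeR) and without hESC replicate 1 or 3 or NMP-L replicate 1 or 2. GABARAPL1 was past the threshold as lower with RLE (adjusted p = 0.037) and upper-quartile scaling (adjusted p = 0.034, edgeR). The same held with DESeq2 (adjusted p = 0.047), while the sign was positive relative to GAPDH counts (0.37).

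Other transmitter receptors were mixed. Of the GABA-B receptor genes 1 rose and 1 fell, and of the 4 glycine receptor genes 2 were tested. Of all tested genes 29.1% rose and 26.7% fell, so that such small counts say little about these receptors. GLRB, the beta subunit of glycine receptors, had 12, 13 and 12 counts in hESCs and 5, 3 and 5 in NMP-L cells. It fell by 1.71 (standard error 0.39, adjusted p = 0.0029, edgeR).

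**Figure D4:**
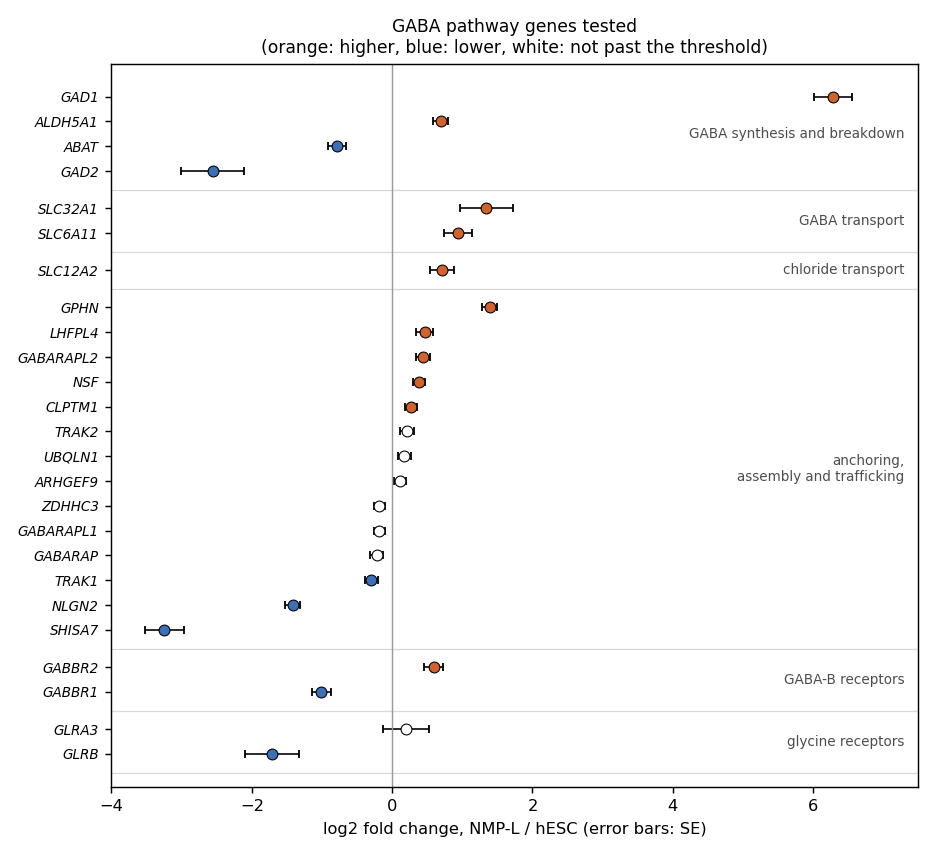
The plot of GABA pathway genes gives the log2 fold change of 25 tested genes with bars of 1 standard error, in groups by role, with genes that rose in orange, genes that fell in blue and the rest in white. GAD1 (6.28) lies far to the right of the other genes shown, and SHISA7 (-3.25) and GAD2 (-2.56) to the left.

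The genes whose profile over the 6 libraries was most like that of GABRB2 were found by the root mean square difference of centred log2(CPM + 0.1). ADGRG1, an adhesion receptor of neural progenitors, was nearest, with a difference of 0.215 and 14, 27 and 18 counts in hESCs against 1282, 1054 and 1094 in NMP-L cells. CUZD1 (0.231), the Wnt receptor gene FZD10 (0.252), the noncoding RNA LINC01124 (0.268) and DHRS2 (0.269) followed. With a pseudocount of 1 in place of 0.1, 0 of these were among the nearest 5, and FZD10 was at rank 9. The choice of these genes thus depends on how values near 0 are treated.

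The cultures were checked against lists of markers, in the comparison in which 55.8% of all tested genes were past the threshold, 29.1% as higher and 26.7% as lower. All 5 hESC markers fell, with summed levels of 3704 to 3954 CPM in hESCs and 1992 to 2110 CPM in NMP-L cells. Of 10 markers of NMP-like cells 7 rose and 3 (CYP26A1, FGF17 and TBX6) fell, with summed levels of 28.2 to 33.8 and 108 to 143 CPM. Of 14 neuronal markers 2 rose (NEFL and MAP2), 7 fell and 4 of the 13 tested were not past the threshold, and the summed level was 509 to 515 CPM in hESCs and 374 to 397 CPM in NMP-L cells. Among defining neuronal genes, STMN2 had 25, 32 and 38 counts in hESCs and 3, 7 and 7 in NMP-L cells, whereas NEFL rose by 1.54 and MAP2 by 0.97 on the log2 scale. Of 6 markers of neural progenitors 4 were tested, and SOX1 and HES5 rose while OTX2 fell. IRX3 (log2 fold change -0.49) was not past the threshold, although its libraries were lower without overlap. The summed levels were 20.0 to 22.1 CPM in hESCs and 19.6 to 24.8 CPM in NMP-L cells, but their make-up changed. OTX2 was at 17.99 and 8.32 CPM on average, and SOX1 at 0.417 and 11.2 CPM. PAX6, too low to test, had 3, 8 and 7 counts in hESCs and 1, 0 and 0 in NMP-L cells, without overlap. PAX3 had at most 2 counts in any library. Of 8 endodermal markers 2 were tested and 1 (PRDM1) rose, with summed levels of 2.52 to 3.55 and 4.67 to 5.89 CPM, and SOX17 had at most 1 count in any library. Of 8 mesodermal markers 3 were tested and 2 (TCF15 and KDR) fell. The summed level of the list was 406 to 423 CPM in hESCs and 102 to 120 CPM in NMP-L cells, nearly all of it KDR, at 407 and 106 CPM on average, while TCF15 was at 5.14 and 1.33 CPM. Of 6 glial markers 4 were tested, 1 (GFAP) rose and 3 fell, from 15 to 15.4 CPM to between 7.40 and 7.69 CPM. The part of these cell types in the change of GABRB2 was not tested.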

How the data were processed

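Polyadenylated RNA of 3 hESC and 3 NMP-L replicates was read from a single end over 76 bp. The files deposited by the authors hold gene-level expected counts from RSEM, not normalized across libraries, and TPM values scaled to transcript length and a total of 1000000 per library. The submitters' processing notes name cutadapt 1.9.1, STAR 2.5.2a, RSEM 1.3.0, DESeq2 1.12.3 and hg19. The gene annotation is not given in the sources used here. No per-sample column was left unused (0).

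Rounded counts entered edgeR 4.0.16 (R 4.3.3), where filterByExpr (minimum count 10) kept 15517 of 27672 genes, TMM set the scaling, and glmQLFit with glmQLFTest gave the test. Benjamini-Hochberg adjustment covered all tested genes, with 0.05 as the threshold. CPM use TMM-scaled library sizes. Standard errors are the log2 fold change divided by the square root of F. Ratios to 3 counts use unscaled library totals. Positions come from GENCODE 44 on GRCh37, the build of hg19, and promoters from RefSeq on GRCh38.p14. In a simulation of the comparison on 15325 genes, 172 of 200 changed genes were recovered, with 10 false calls. The changes were set at 1 or 2 on the log2 scale, of which 84 of 107 and 88 of 91 were recovered. Smaller changes were not simulated, and the share of changed genes was far below that called in the data.

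The genes and lists were chosen with earlier results of these data known. The text names the 7 genes, other subunit genes with more than 3 counts, in the pathway and neighbour lists the 5 largest changes past the threshold and the 3 most abundant of the rest, and the 5 nearest profiles to GABRB2. Some further subunit and pathway genes entered the fits and counts but are not reported here. The other genes named in the text, most of them in the marker lists, were chosen after their values were seen. Alternatives were RLE, upper-quartile and library-size scaling, scaling to GAPDH or HPRT1 counts, DESeq2 1.42.0, other filters, a replicate block, leaving out each library, TPM and a distance of 250 kb. No batch is given in the labels. Biological replicates are not further described in the labels.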

Additional observations from a re-analysis of the deposited data

How the results depend on the processing

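Of the 76 alternative counts over the 5 sets of genes (all tested genes, the 7 cluster genes, the other subunit genes, the GABA pathway genes and the genes around the clusters), 73 stayed within 1.5 times the reported value. These counts join both directions and do not show shifts between them. The pathway genes, 12 higher and 7 lower as reported, were 19 and 5 relative to GAPDH and 4 and 10 relative to HPRT1. The genes around the clusters, 1 higher and 9 lower, were 4 and 4 relative to GAPDH. With at least 10 counts in every library, 1 of the 7 cluster genes was past the threshold in place of 3, since GABRB2 and GABRA2 have fewer counts in some libraries and only 2 of the 7 were tested. Scaled to GAPDH, 3 of the other subunit genes were past it in place of 5. Within 250 kb 2 of the genes around the clusters were, in place of 10, as only 3 were tested. Relative to GAPDH counts the sign turned for GABARAPL1 (0.37), PTTG1 (0.034) and HERC2 (0.35), and relative to HPRT1 counts for CLPTM1 (-0.033). The cause was not tested.

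With GAPDH as reference 11455 genes differed, 10027 of them higher, and relative to HPRT1 counts 7087 did, 1793 of them higher, against 8653 and 4512 in the reported comparison. With each library left out in turn, the number of cluster genes past the threshold was 3 in each fit. That of other subunit genes was 4 to 6, that of pathway genes 16 to 21 and that of neighbouring genes 8 to 10. All counts of cluster genes in this section use the contrast for which those genes were chosen and are an account of them only. On the scale of log2(TPM + 0.1) the change of GABRB2 was 4.78, lower because the added 0.1 exceeds its hESC level.

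The conditions use the same replicate numbers without any source stating a pairing, and libraries of equal number deviated from the means of their conditions with correlations of -0.37, -0.06 and -0.13 across genes. With the replicate block 7560 genes differed, and the block left 3 of the 7 cluster genes, 5 other subunit genes, 18 pathway genes and 9 neighbouring genes past the threshold. Of the genes named, CLPTM1 (adjusted p = 0.080, edgeR) and HERC2 (adjusted p = 0.14) lost their call under the block. Genes at or under 3 counts, such as GABRB1 and GABRA6, cannot be compared at this depth.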

Other observations

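The expected count divided by TPM in a library gives the transcript length that RSEM assumed for a gene, here relative to the median of 11883 well counted genes. For GABRB2 this length was 2.35 times the median in each of the 3 NMP-L libraries, and its hESC counts were too few for a value. For GABRA5 it lay between 0.871 and 0.879 in all 6 libraries, so that the length assumed for it was almost equal in both conditions. For GABRA2 it lay between 2.69 and 2.75 in the hESC libraries.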
